A study of Mus musculus with 6 samples.

Results

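The BTB zinc finger genes were taken as every gene whose symbol is Zbtb followed by a number, with or without letters after it. The mRNA table held 39 of them among its 21310 genes, out of 41 such symbols in the reference tables. Zbtb9 and Zbtb26 were not matched and were not analysed here. The mRNA libraries came from pachytene spermatocytes, the germ cells of the testis in the long pairing stage of meiosis, of Alkbh1-/- mice and wild-type (WT) mice. The Alkbh1-/- line lacks exon 6 of Alkbh1 by targeted deletion and was backcrossed to C57/BL6. Each genotype had 1 mRNA library, made with oligo(dT) particles from 1.6 µg of RNA in Alkbh1-/- and 1 µg in WT, and read as 75 bp paired ends. The sources used here give neither the age of the mice nor how many were pooled. The study also trapped Tzfp, the gene named Zbtb32 here, but the trapped mice gave small RNA only, so no mRNA level of the trap was analysed here.

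A BTB zinc finger protein joins a BTB domain, through which the proteins pair with themselves or with each other, to a row of zinc fingers that bind DNA. Many recruit corepressors such as NCOR1 and histone deacetylases, and some bind the ubiquitin ligase scaffold CUL3. The family is best known from blood: Zbtb7b and Zbtb16 direct lymphocyte lineages. In the testis Zbtb16 (PLZF) keeps the spermatogonial stem cells. Zbtb32, also called Tzfp, Rog or Fazf, was found in testis and in activated lymphocytes and binds Zbtb16 protein.

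The deposited counts summed to 10229260 in Alkbh1-/- and 8222671 in WT. Levels are given as CPM (counts relative to the library total) after TMM scaling, which corrects library totals for composition. The log2 ratio is that of Alkbh1-/- over WT with a pseudocount of 1 CPM, and each ratio has an exact 95% interval (Clopper-Pearson) that covers counting error only. With 1 library per genotype there was no replicate error and no test, so every difference below describes this pair of libraries. A gene was counted as higher or lower when its log2 ratio passed 1.5-fold and it had 5 CPM or more in at least 1 library. The targeted gene, Alkbh1, had 20.2 CPM in Alkbh1-/- (209 reads) and 21.0 CPM in WT (171 reads), a ratio of 0.962 (0.782 to 1.18). Reads summed along the gene cannot show the loss of exon 6, so the genotype label was not checked by this value. Markers of pachytene spermatocytes were abundant in both libraries: the 12 of 13 that were matched summed to 13446 CPM in Alkbh1-/- and 14468 CPM in WT. All 12 lay within 1.5-fold, as did 83.2% of all genes over the floor and 95.9% of genes with a mean of 100 CPM or more. The 12 markers are thus near the share of other abundant genes. Markers of Sertoli cells, the somatic nurse cells of the tubule, were present too and summed to 1361 CPM in Alkbh1-/- and 2749 CPM in WT. In bulk RNA, fewer cells of a type and less RNA per cell cannot be told apart.

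**Figure D1:**
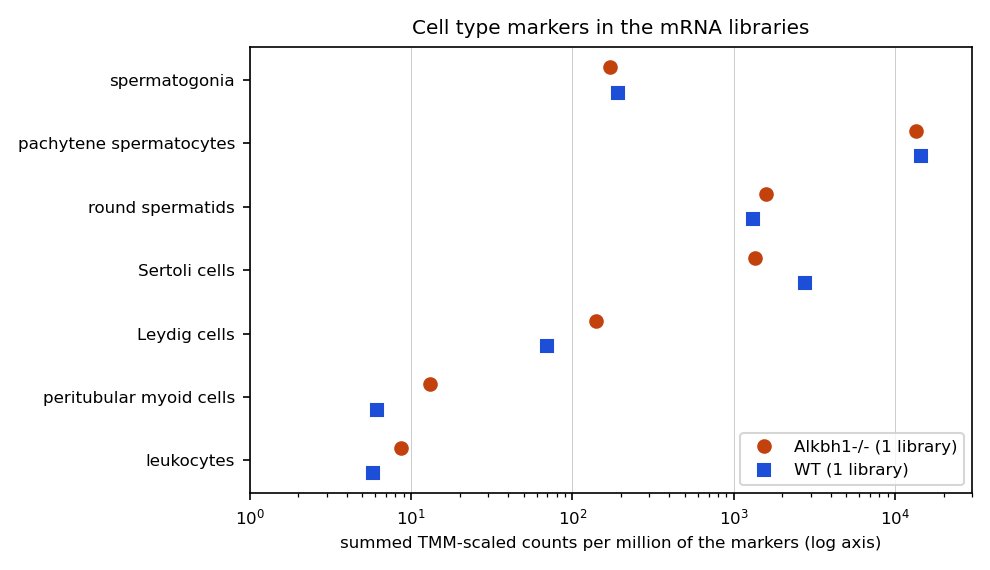
Summed TMM-scaled CPM (log axis) of the markers of each cell type, with the Alkbh1-/- library as circles above the WT library as squares. Sertoli markers were lower in Alkbh1-/- (1361 against 2749 CPM), Leydig markers were higher (140 against 69.8 CPM), and leukocyte markers summed to 8.71 and 5.78 CPM.

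Zbtb32 (ENSMUSG00000006310, chromosome 7) had more reads than any other gene of the family in both libraries. It had 4374 reads, or 423 CPM, in Alkbh1-/- (exact Poisson interval 411 to 436), against 2672 reads, or 328 CPM, in WT (316 to 341). It had more reads than 98.3% of all genes in the table in Alkbh1-/- and more than 97.3% in WT. Transcript lengths were not available, so this is an order of reads and not of transcripts: a long mRNA yields more reads than a short mRNA of the same abundance.

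Both annotated starts of Zbtb32 are shown because the gene trap of this study entered upstream of its first exon. The windows run from 250 bases before to 50 bases after a start (RefSeq, GRCm38.p6). Capitals mark CCAAT or its reverse complement ATTGG, the letters that the factor NF-Y is known to bind; this motif was chosen after the Zbtb32 window had been read. The windows of Zbtb5 and Zbtb3 are set beside it as the others of the family that hold 4 matches. The strand is minus for Zbtb32 and Zbtb5 and plus for Zbtb3.
Zbtb32 start 1, chr7:30598860-30599159: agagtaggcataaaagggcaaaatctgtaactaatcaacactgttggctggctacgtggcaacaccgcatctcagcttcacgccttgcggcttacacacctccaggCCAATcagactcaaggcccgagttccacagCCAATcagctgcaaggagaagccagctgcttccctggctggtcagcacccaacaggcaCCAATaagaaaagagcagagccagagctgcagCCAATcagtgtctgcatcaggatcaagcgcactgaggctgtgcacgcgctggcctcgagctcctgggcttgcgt
Zbtb32 start 2, chr7:30592893-30593192: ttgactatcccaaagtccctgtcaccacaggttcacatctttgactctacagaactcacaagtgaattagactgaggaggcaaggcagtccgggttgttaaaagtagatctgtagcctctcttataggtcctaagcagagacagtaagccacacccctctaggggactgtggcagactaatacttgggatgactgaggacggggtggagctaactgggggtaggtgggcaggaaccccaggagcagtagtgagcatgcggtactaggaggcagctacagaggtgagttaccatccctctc
Zbtb5, chr4:45012363-45012662: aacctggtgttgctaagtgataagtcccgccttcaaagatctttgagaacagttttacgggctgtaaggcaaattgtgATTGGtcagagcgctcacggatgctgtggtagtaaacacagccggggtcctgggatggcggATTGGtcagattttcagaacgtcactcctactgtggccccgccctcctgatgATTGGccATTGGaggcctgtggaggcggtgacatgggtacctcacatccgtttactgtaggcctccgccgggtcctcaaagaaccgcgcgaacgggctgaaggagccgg
Zbtb3 start 1, chr19:8802263-8802562: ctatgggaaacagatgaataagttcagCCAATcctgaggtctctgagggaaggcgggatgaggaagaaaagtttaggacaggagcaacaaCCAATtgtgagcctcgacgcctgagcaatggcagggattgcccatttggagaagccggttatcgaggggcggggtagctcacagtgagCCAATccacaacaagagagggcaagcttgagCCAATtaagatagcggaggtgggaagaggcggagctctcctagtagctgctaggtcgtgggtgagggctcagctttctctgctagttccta

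Start 1 of Zbtb32 held 4 CCAAT matches on its own strand, and start 2 held 0. Zbtb5 held 4 on the opposite strand, and start 1 of Zbtb3 held 4 on its own strand. These 3 genes are among the 6 members with the most reads, all of which had a window. Of the other 33 members, 28 had a window and 0 of them held 4. The limit of 4 is the count at Zbtb32 itself, for which the motif was chosen. No link between matches and reads can therefore be drawn from this split. Over all 32851 windows of 27025 genes, 37.4% held at least 1 match on either strand and 1.06% held 4 or more. Of the 47 member windows 27.7% held at least 1 and 6.38% held 4 or more. Without Zbtb32 these shares were 26.7% and 4.44%. Further motifs were searched on both strands, where matches may overlap. AACNG, the core bound by MYB proteins such as the pachytene factor MYBL1, was present in 76.6% of the 47 member windows and 80.3% of all windows. TGACG, the core of CREB and CREM sites, was present in 21.3% and 20.8%, and TATAAA in 12.8% and 13.6%. These are matches of letters, not sites of binding.

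The member windows were rich in CG pairs, the bases that can be methylated. They held a median of 25 CG pairs, against 7 over all windows. Of the 47, 34 (72.3%) had a CG content of at least 0.6 of that expected from their base composition, against 35.8% of all windows. All windows were taken whatever the type or reads of their gene, while most members passed the floor. No set matched for type and reads was counted, so richness in CG pairs cannot be called particular to the family. Zbtb32 lay below its family here, with 10 CG pairs at start 1 (0.428 of expected) and 3 at start 2 (0.150). Zbtb3 (9 and 11), Zbtb20 (3) and Zbtb46 (1) were among the others with few. The windows of Zbtb18 ranged from 1 to 51 over its 5 annotated starts. Which start was in use in these cells cannot be read from counts over whole genes.

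The distance from Zbtb32 to the rest of the family was large in both libraries. In Alkbh1-/- it had 2.72 times the reads of the second member, Zbtb44, and in WT 2.07 times those of the second member there, Zbtb18. Zbtb32 alone held 24.8% of the family's reads in Alkbh1-/- (Wilson 95% interval 24.2 to 25.5) and 19.4% in WT (18.8 to 20.1). The 39 genes together held 0.172% of the library in Alkbh1-/- (0.170 to 0.175) and 0.167% in WT (0.165 to 0.170). Without Zbtb32 the family held 0.129% in Alkbh1-/- (0.127 to 0.132) and 0.135% in WT (0.132 to 0.137). The larger share of Zbtb32 in Alkbh1-/- thus came with a slightly smaller share of the other members.

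**Figure D2:**
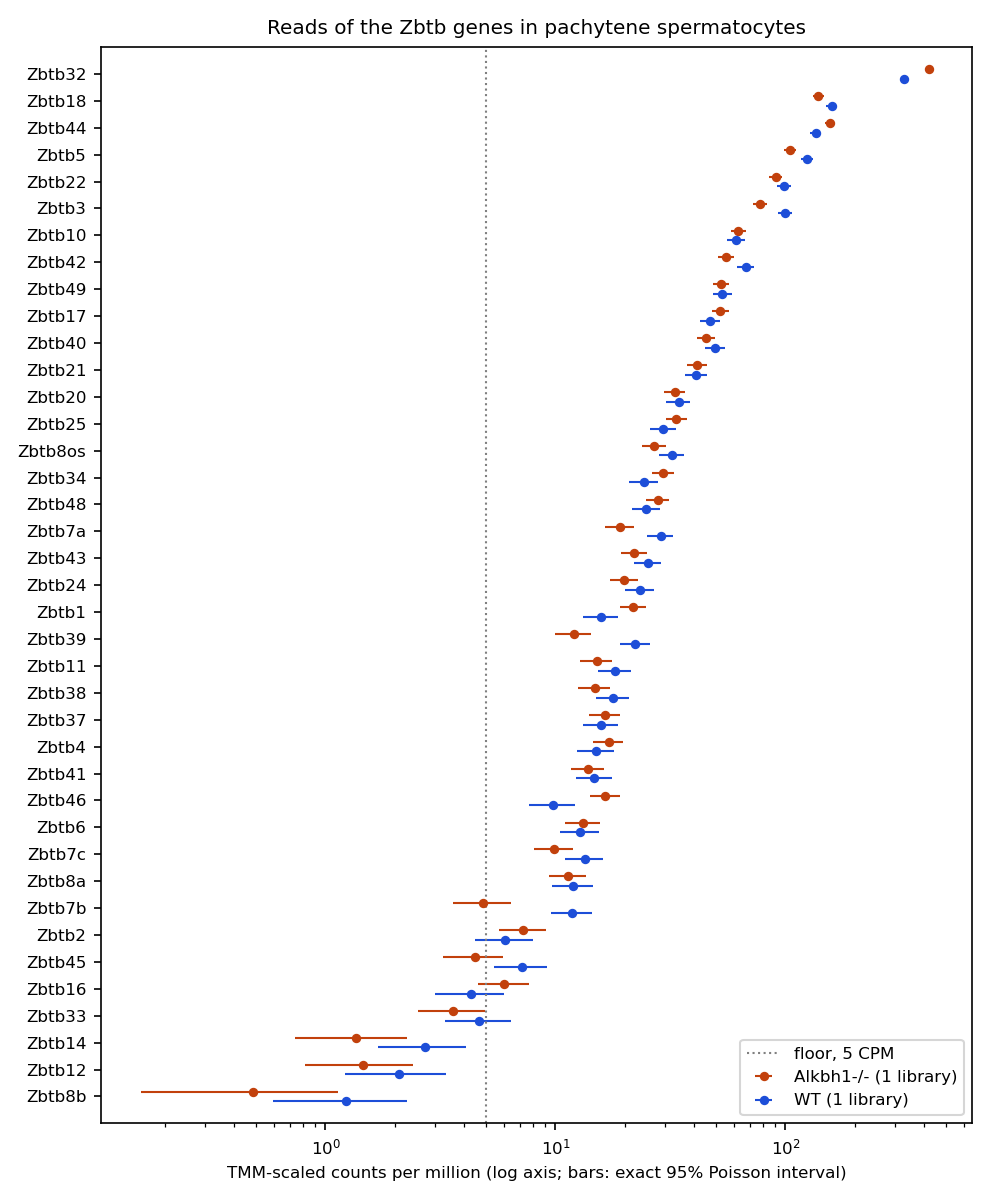
TMM-scaled CPM of the 39 Zbtb genes on a log axis, ordered by their mean, with exact 95% Poisson intervals; in each row the upper point is Alkbh1-/- and the lower point is WT, 1 library each. Zbtb32 stands above the family at 423 and 328 CPM, and Zbtb33, Zbtb14, Zbtb12 and Zbtb8b lie below the dotted floor of 5 CPM in both libraries.

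The ratio of Zbtb32 was 1.29 (1.23 to 1.35), a log2 ratio of 0.36. The interval lies off 1, but the gene stayed within 1.5-fold. It ranked 4 from the top among the 35 members over the floor, below Zbtb46, Zbtb1 and Zbtb16. Among all genes over the floor 16.0% had a log2 ratio at least as high, and among the 2529 genes with a mean of 100 CPM or more 5.18% did. On the GRCm38 annotation Zbtb32 overlaps Gm32082, a gene that is not protein coding and had no matched count here. Reads of Gm32082 could be counted for Zbtb32 where the genes share bases. The nearest protein-coding neighbours of Zbtb32 are Kmt2b, a histone methyltransferase gene, and Upk1a. Kmt2b had 218 CPM in Alkbh1-/- and 194 CPM in WT (ratio 1.12, 1.05 to 1.20), and Upk1a had 2 reads in each library.

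Zbtb16 (ENSMUSG00000066687, chromosome 9), the marker of spermatogonial stem cells, lay at the other end of the family. It had 62 reads (6.00 CPM) in Alkbh1-/- and 35 reads (4.30 CPM) in WT, ranks 33 and 36 of 39. It overlaps the protein-coding Gm32280 on the annotation, a gene with no matched count here, so the few reads of Zbtb16 are uncertain. The ratio of Zbtb16, 1.39, had an interval that holds 1 (0.907 to 2.17), so a difference was not detectable at this depth. Zbtb32 thus had many more reads than its binding partner in both libraries. Among 13 spermatogonial genes, of which Zbtb16 is a member, 8 passed the floor, with 2 higher (25%, against 8.06% of all genes over the floor) and 1 lower (12.5%, against 8.79%). Kit, the receptor of differentiating spermatogonia, had 25.6 CPM in Alkbh1-/- and 12.2 CPM in WT, while Etv5, a stem cell factor that Sertoli cells also express, had 21.7 and 43.6 CPM. Which cells gave the reads of Kit and Etv5 was not tested.

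The 5 members next in the order of reads were Zbtb18, Zbtb44, Zbtb5, Zbtb22 and Zbtb3. Zbtb18, a repressor required in cortical neurons, had 139 CPM in Alkbh1-/- and 159 CPM in WT (ratio 0.877, 0.813 to 0.946). Zbtb44 had 156 CPM in Alkbh1-/- and 135 CPM in WT (ratio 1.15, 1.06 to 1.24). These neighbours in the order changed places between the libraries. Zbtb5, reported in human cells to repress the cell cycle inhibitor gene CDKN1A, had 105 CPM in Alkbh1-/- and 124 CPM in WT (ratio 0.845, 0.775 to 0.922). Zbtb22 had 90.7 and 98.2 CPM in Alkbh1-/- and WT, and its interval holds 1 (0.840 to 1.02). Zbtb3 had 77.5 and 99.8 CPM (ratio 0.776, 0.703 to 0.857). Each of these 5 lay within 1.5-fold, and with Zbtb32 they held 58.2% of the family's reads in Alkbh1-/- and 55.8% in WT. The next 4 were Zbtb10, Zbtb42, Zbtb49 and Zbtb17, with means of the libraries from 49.6 to 61.7 CPM. Zbtb17 encodes MIZ1, a partner of MYC, and had 52.0 CPM in Alkbh1-/- and 47.2 CPM in WT. It overlaps Spen on the annotation, which had 269 CPM in Alkbh1-/- and 311 CPM in WT. Zbtb49 overlaps Lyar, which had 1613 CPM in Alkbh1-/- and 1538 CPM in WT. For both members, reads could be counted for the wrong gene, so their levels are uncertain.

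In all, 20 members had means of 20 CPM or more, 15 lay from 5 to 20 CPM and 4 lay lower. Over the 39 genes the median level was 19.9 CPM in Alkbh1-/- and 23.4 CPM in WT, against 7.45 and 7.50 CPM over all genes in the table. Of the members 35 (89.7%) passed the floor of 5 CPM, against 57.2% of all genes. The order of reads was much alike in the libraries, with a Spearman rho of 0.968 across the 39 genes and a median shift of 1 rank. These are genes of 1 pair of libraries, not replicates. The largest shift, 9 ranks, was that of Zbtb46.

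Few members differed by 1.5-fold. Of the 35 over the floor 1 was higher in Alkbh1-/- (2.86%), against 8.06% of the 12189 genes measured, and 2 were lower (5.71%), against 8.79%. At 2-fold 0 members were higher, against 1.8% of genes, and 1 was lower, against 2.71%. The share of lower members was above that of all genes in other settings: with a pseudocount of 0.1 CPM, 4 of 35 were lower (11.4%), against 9.62% of genes. No test sets these shares apart from those of all genes. The median log2 ratio of the 35 was -0.07, and that of all genes was -0.02. By the interval of the ratio, 5 members lay above 1, 10 lay below 1 and 20 held 1. The share of all genes with an interval off 1 was not counted, so these numbers do not set the family apart.

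**Figure D3:**
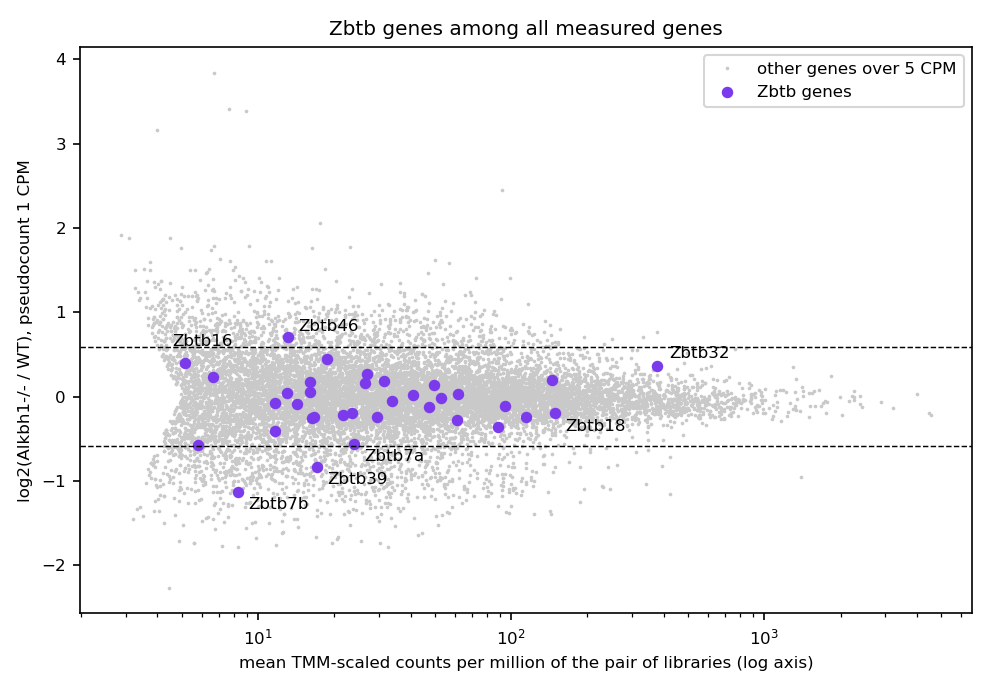
Log2 ratio of Alkbh1-/- over WT (pseudocount 1 CPM) against the mean CPM (log axis) for the 12189 genes over the floor in grey and the 35 Zbtb genes in purple; dashed lines mark 1.5-fold. Zbtb46 lies above the upper line, Zbtb7b and Zbtb39 lie below the lower line, and Zbtb32 is the rightmost member at a log2 ratio of 0.36.

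Zbtb46, a gene that marks classical dendritic cells and is also known from endothelium, was the member counted as higher. It had 170 reads (16.4 CPM) in Alkbh1-/- and 79 reads (9.71 CPM) in WT, a ratio of 1.69 (1.29 to 2.24) and a log2 ratio of 0.70. On the annotation it overlaps Zgpat, Lime1 and Abhd16b, and the sources used here do not say whether reads were counted by strand, so reads of the 4 genes cannot be told apart where they share bases. Zgpat had 16.4 CPM in Alkbh1-/- and 19.1 CPM in WT (ratio 0.863, 0.690 to 1.08), and Abhd16b had 8.61 and 6.88 CPM. The 8 leukocyte markers matched of 9 were all under the floor and summed to 8.71 CPM in Alkbh1-/- and 5.78 CPM in WT; Cd3e and Cd79a had 0 reads in WT. Of 9 round spermatid markers 5 were higher in the same library (55.6%, against 8.06% of all genes) and 0 were lower, against 8.79%. By ratio 3 of the 9 lay below 1, the lowest being Tnp1 at 0.785 (0.735 to 0.837). Of 5 Leydig markers over the floor 4 were higher (80%) and 0 were lower. Of 4 markers of peritubular myoid cells 2 were over the floor, of which 2 were higher (100%) and 0 were lower, beside the same shares of all genes. The part of these cell types in the level of Zbtb46 was not tested.

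Zbtb7b and Zbtb39 were the members counted as lower. Zbtb7b encodes ThPOK, which commits thymocytes to the CD4 lineage. It had 50 reads (4.84 CPM) in Alkbh1-/- and 96 reads (11.8 CPM) in WT, a ratio of 0.410 (0.285 to 0.583) and a log2 ratio of -1.13. Zbtb39 had 124 reads (12.0 CPM) in Alkbh1-/- and 181 reads (22.2 CPM) in WT, a ratio of 0.539 (0.425 to 0.681) and a log2 ratio of -0.84. Just inside the line of 1.5-fold lay Zbtb45 (log2 ratio -0.58), with 4.45 CPM in Alkbh1-/- and 7.13 CPM in WT, and Zbtb7a (-0.56). Zbtb7a encodes LRF, a regulator of B cell fate and of globin silencing, and had 19.1 CPM in Alkbh1-/- and 28.6 CPM in WT. The third gene of that subfamily, Zbtb7c, had 9.87 and 13.4 CPM (ratio 0.736, 0.557 to 0.974), so all 3 Zbtb7 genes, grouped here after their values were seen, had ratios below 1 with intervals off 1. Of 14 Sertoli markers 12 were matched, all over the floor. In the same direction 11 of these 12 were lower (91.7%, against 8.79% of all genes). Among them was Sox9, the Sertoli transcription factor, at 13.4 CPM in Alkbh1-/- and 47.1 CPM in WT. The part of Sertoli RNA in the levels of these members was not tested.

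**Figure D4:**
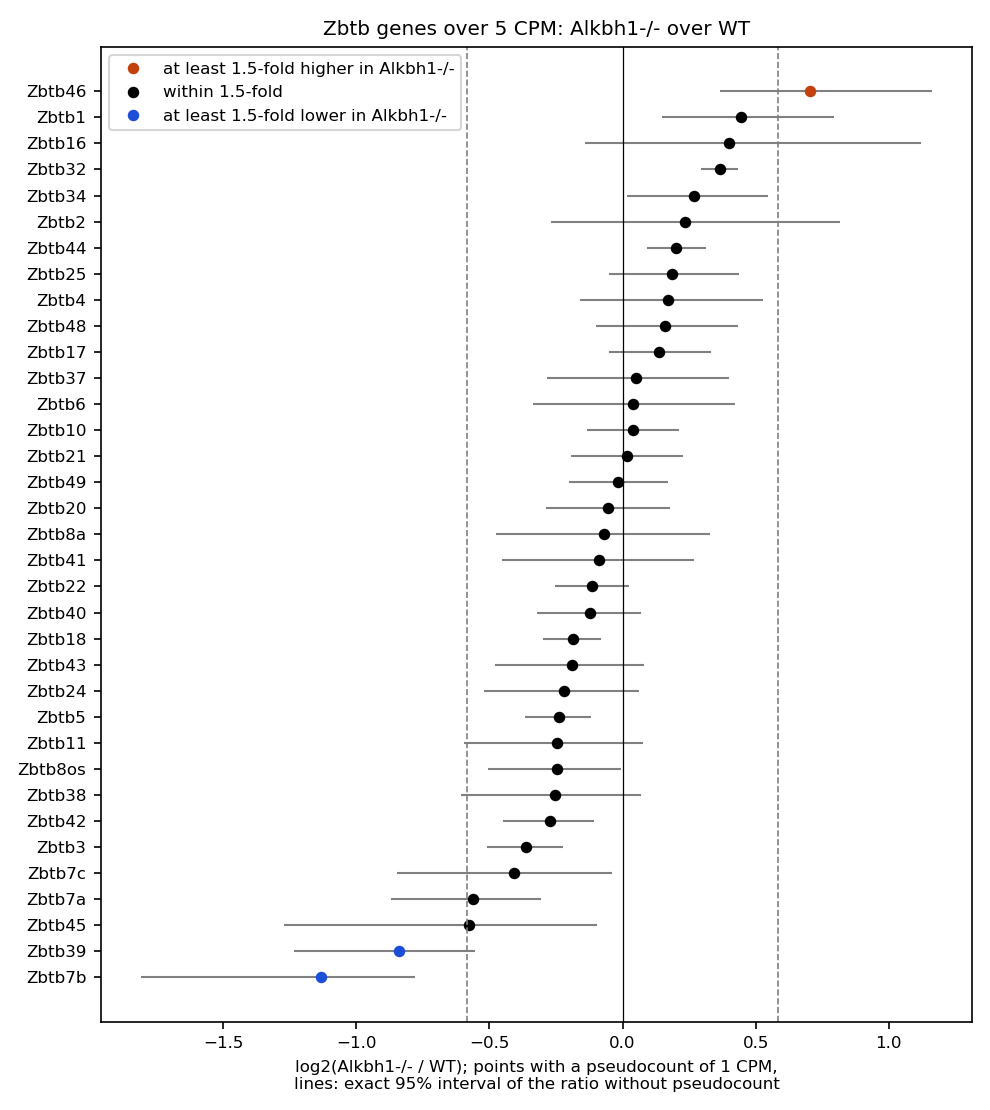
Log2 ratio of Alkbh1-/- over WT for the 35 Zbtb genes with 5 CPM or more, sorted, with points at a pseudocount of 1 CPM, lines for the exact 95% interval of the ratio and dashed lines at 1.5-fold. Zbtb46 (0.70) is at the top, Zbtb39 (-0.84) and Zbtb7b (-1.13) are at the bottom, and 20 intervals hold 0.

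Among the 10 members known from lymphocytes 1 was higher (10%, against 8.06% of all genes), 1 was lower (10%, against 8.79%) and 8 lay within 1.5-fold. Zbtb1, required for lymphoid development, had 225 reads (21.8 CPM) in Alkbh1-/- and 128 reads (15.7 CPM) in WT, a ratio of 1.38 (1.11 to 1.73). It overlaps Zbtb25 at its start on the annotation, and Zbtb25 had 33.6 CPM in Alkbh1-/- and 29.4 CPM in WT (ratio 1.14, 0.966 to 1.35). Zbtb20, a repressor known from liver and B cells, had 33.0 and 34.3 CPM. Zbtb24, mutated in a human immunodeficiency with loss of centromeric DNA methylation, had 19.9 and 23.4 CPM. The intervals of both hold 1. On the annotation Zbtb20 overlaps Tigit and several genes that are not protein coding. Among them 4932412D23Rik had 35.9 CPM in Alkbh1-/- and 42.7 CPM in WT, so the level of Zbtb20 is uncertain.

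Zbtb4, Zbtb38 and Zbtb33 encode proteins that bind methylated CG pairs. Zbtb4 had 17.0 CPM in Alkbh1-/- and 15.0 CPM in WT, and Zbtb38 had 14.8 and 17.8 CPM. Zbtb33, which encodes Kaiso, is the family's gene on the X chromosome, which is silenced in pachytene spermatocytes, and it was under the floor with 3.58 CPM in Alkbh1-/- and 4.67 CPM in WT. The floor was passed by 35.6% of the 1012 X-linked genes, against 63.0% of 17674 autosomal genes. The other members under the floor, Zbtb14, Zbtb12 and Zbtb8b, are autosomal. The part of X silencing in the level of Zbtb33 was not tested. Zbtb33 also overlaps Tmem255a, so its few reads are uncertain. The interval of each of the 3 holds 1. Of 4 genes named for a methyl-CpG binding domain, Mbd1 to Mbd4, 0 were higher, against 8.06% of all genes, and 0 were lower, against 8.79%. Mbd3 had the most reads of the 4, at 180.1 CPM in Alkbh1-/- and 186 CPM in WT.

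Of the members tied to telomeres in human cells, Zbtb10 had 62.5 CPM in Alkbh1-/- and 60.8 CPM in WT, and Zbtb48, which encodes TZAP, had 27.9 and 24.8 CPM. Neither differed beyond counting error. Zbtb34 had 29.4 and 24.2 CPM (ratio 1.21, 1.01 to 1.46), while its neighbour on chromosome 2, Zbtb43, had 22.0 and 25.2 CPM (0.871, 0.718 to 1.06). Zbtb8os follows the naming rule but encodes archease, a cofactor of the tRNA ligase and no zinc finger protein. It had 26.9 CPM in Alkbh1-/- and 32.1 CPM in WT, next to Zbtb8a with 11.3 and 11.9 CPM and Zbtb8b with 5 and 10 reads. The remaining members over the floor lay within 1.5-fold, from Zbtb42 (log2 ratio -0.27) to Zbtb2 (0.23). Zbtb14, with 14 reads in Alkbh1-/- and 22 in WT, and Zbtb12, with 15 and 17, were too low for a ratio to be read.

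The members lie on 15 chromosomes. Chromosome 4 holds 7 of them: Zbtb5, Zbtb8a, Zbtb8b, Zbtb8os, Zbtb17, Zbtb40 and Zbtb48. Of these 7, none was past 1.5-fold among the 6 over the floor. Among all genes over the floor 8.06% were higher and 8.79% were lower, so these few genes cannot be set apart from the rest. Chromosome 7, which holds Zbtb32, also holds Zbtb45.

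Other genes with BTB domains or zinc fingers were counted in the same way, beside 8.06% higher and 8.79% lower among all genes. Of 25 BTB-Kelch genes named Klhl and a number, 1 was higher (4%) and 4 were lower (16%), with a median log2 ratio of 0.05. Of 6 genes named Btbd and a number 0 passed in either direction (median -0.12), and of 239 genes named Zfp and a number 14 were higher (5.86%) and 15 were lower (6.28%), with a median of -0.03. BTB zinc finger genes with other names gave 1 higher (16.7%) and 0 lower of 6 over the floor: Hic2 had 20.3 CPM in Alkbh1-/- and 12.8 CPM in WT (ratio 1.59, 1.25 to 2.03). Bcl6, the repressor of germinal centre B cells, had 3.77 and 6.15 CPM, and Bcl6b, known from spermatogonial stem cells, had 6.77 and 6.88 CPM. None of these genes came near the reads of Zbtb32, the highest being Gzf1 with 45.9 and 41.5 CPM. No family was set apart from another by a test.

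**Figure D5:**
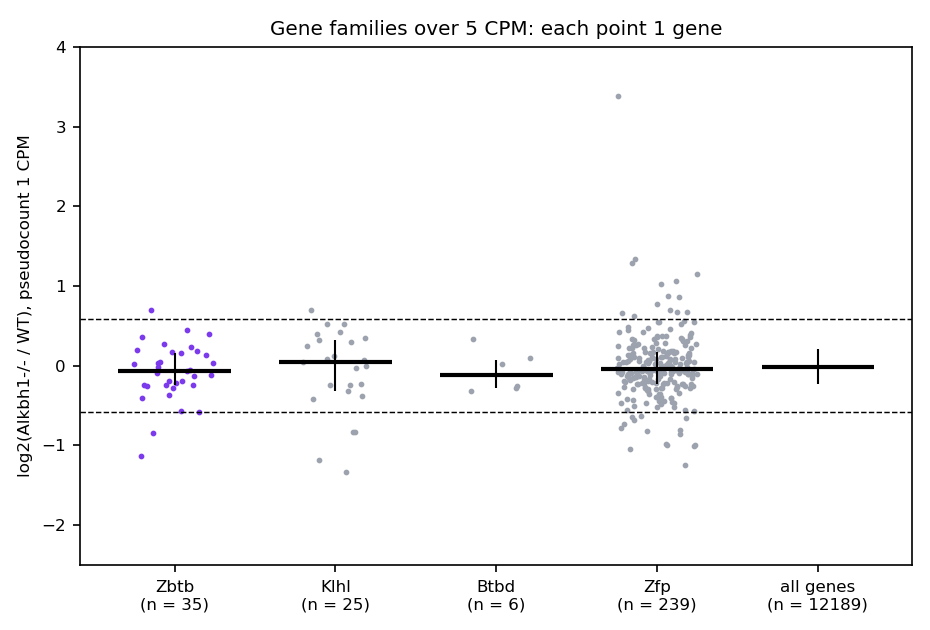
Log2 ratio of Alkbh1-/- over WT (pseudocount 1 CPM) for each gene over 5 CPM in the Zbtb, Klhl, Btbd and Zfp families, 1 point a gene, with the median (thick bar) and quartiles (thin line); all 12189 genes are shown by median and quartiles alone. The medians lie at -0.07, 0.05, -0.12, -0.03 and -0.02.

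Corepressors and cullin partners of BTB zinc finger proteins gave 0 higher, against 8.06% of all genes, and 2 lower of 15 over the floor (13.3%, against 8.79%), with a median log2 ratio of 0.02. Tbl1x, a subunit of the NCOR1 complex encoded on the X chromosome, had 20.1 CPM in Alkbh1-/- and 45.2 CPM in WT (0.445, 0.373 to 0.529). Sin3b, a scaffold for histone deacetylases, had 241 CPM in Alkbh1-/- and 380 CPM in WT (0.634, 0.601 to 0.668). Their paralogs were within 1.5-fold: Tbl1xr1 had 77.5 CPM in Alkbh1-/- and 67.1 CPM in WT, and Sin3a had 27.5 CPM in Alkbh1-/- and 24.5 CPM in WT. Ncor1 had 160.66 CPM in Alkbh1-/- and 159.55 CPM in WT. Cul3, with 478 CPM in Alkbh1-/- and 472 CPM in WT, and Hdac3, with 81.2 CPM in Alkbh1-/- and 77.8 CPM in WT, had intervals that hold 1. The Sertoli markers were lower in the same library, and their part in these values was not tested.

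Genes named as partners or targets of Zbtb32 in earlier work gave 8 matches, of which 4 passed the floor, as did 12189 of all 21310 genes. Of these 4, 2 were higher (50%, against 8.06% of all genes) and 0 were lower, against 8.79%. Gata2, related to the Gata3 that Zbtb32 restrains in T cells, had 11.7 CPM in Alkbh1-/- and 7.13 CPM in WT (ratio 1.64, 1.19 to 2.29). Fancc, whose protein binds that of Zbtb32, had 20.5 and 13.0 CPM (1.57, 1.24 to 2.01). Aurkc, the meiotic Aurora kinase, had 9.96 and 12.8 CPM, with an interval that holds 1 (0.588 to 1.03). Gata3 had 27 reads in Alkbh1-/- and 16 in WT, and Prdm1 had 2 and 0. No direction common to the list can be read from 4 genes.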

How the data were processed

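RNA was taken from pachytene spermatocytes, 1 mRNA library per genotype. The deposited mRNA table gives, for each Ensembl gene, the authors' read count as a whole number. The submitters' processing notes name CASAVA 1.3, Novoalign, TopHat, bedtools and mm9, without roles. The sources used here do not give how reads were counted, or whether by strand. Symbols matched 19848 of 21310 identifiers (93.1%). Overlaps, neighbours, chromosomes and promoter windows came from RefSeq tables on GRCm38.

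Counts were scaled by TMM in edgeR 4.0.16 (R 4.3.3). Log2 ratios used a pseudocount of 1 CPM, which understates the change of low genes. Python 3.11.15, numpy 2.4.6, pandas 2.3.3 and scipy 1.17.1 gave exact and Wilson intervals, which cover counting error only. PCR copies are not independent molecules, so the intervals may be too narrow even for that error. The ratio and its interval were tested on simulated data with 200 changed genes. The simulated counts held counting error alone, so they cannot show how PCR copies affect the intervals. Alternatives were DESeq2 1.42.0 size factors, upper-quartile factors, totals, other pseudocounts, floors and folds. Members and lists were chosen with earlier results of these data known. The text names every member over the floor that passed 1.5-fold, the 10 with most reads, Zbtb32, Zbtb16 and the members of the role lists. Levels per length were planned, but no transcript or coding length was available, so CPM is given. The small RNA tables were not used here. Of 2 lists, 1 member each is not reported here, and these lists are counted without it.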

Additional observations from a re-analysis of the deposited data

How the results depend on the processing

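Over scalings the log2 ratio of a member moved by at most 0.03, and the sign of 1 member near 0, Zbtb49, changed. A pseudocount is added to both libraries alike and so cannot change a sign, but it moved the size where reads were few. With pseudocounts of 5 and 0.1 CPM the log2 ratio of Zbtb8b was -0.18 and -1.19, in place of -0.59. That of Zbtb14 was -0.28 and -0.95, in place of -0.65, and that of Zbtb7b was -0.77 and -1.27, in place of -1.13. The log2 ratio of Zbtb32 ranged from 0.36 to 0.39. The median of the members ranged from -0.12 to -0.04 over scalings, pseudocounts, floors and choices of members. The counts past 1.5-fold were small and moved. The count of higher members was 0, in place of 1, with a pseudocount of 5 CPM, a floor of 20 CPM, a 2-fold limit, or, in a setting chosen after seeing the data, without the 10 members that overlap another protein-coding gene. The count of lower members, 2 in the main setting, was 4 with a pseudocount of 0.1 CPM (adding Zbtb7a and Zbtb45), 4 with a floor of 1 CPM or with no floor (adding Zbtb14 and Zbtb8b, with at most 22 reads per library), and 1 with a floor of 20 CPM (Zbtb39) or a 2-fold limit (Zbtb7b). The share of lower members, 5.71% against 8.79% of all genes in the main setting, was thus 11.4% against 9.62% with the pseudocount of 0.1 CPM, 10.3% against 8.93% with the floor of 1 CPM and 10.3% against 6.88% with no floor. Levels per kilobase of transcript or of coding sequence were not run, because no such length was available, so the rank of Zbtb32, 1 in both libraries, has no alternative. No paired analysis was possible because each genotype had 1 mRNA library. Depth limits the members with few reads: Zbtb7b, with 50 and 96 reads, had a ratio known to within 0.285 and 0.583, and Zbtb32, with 4374 and 2672, to within 1.23 and 1.35.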
